A study of Mus musculus with 568 samples.

Results

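Expression of 8 mouse germ line genes that are known or likely targets of promoter methylation was followed through the in vitro female germ line: Tex19.1, Tex101, Aurkc, Taf7l, Slc25a31, Tuba3a, Tuba3b and Rpl10l. The genes were chosen by name, and their bulk and single-cell levels were known when they were chosen, so the levels are given as a description. A fit over all genes marks genes as called at a set threshold, and for the 8 genes these calls are also a description, in every comparison, and not independent evidence. The bulk table of 16335 genes held 7 of the 8 genes, all but Tex101, and the single-cell table of 15718 genes held all 8. DNA methylation was not measured in the data used here, so the methylation of these promoters in these cells cannot be read from the values below.

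All cells came from the XRep system, a female hybrid embryonic stem cell (ESC) line with 1 X chromosome of 129S1/SvImJ and 1 of CAST/EiJ origin, in which a truncation of Tsix on the 129S1/SvImJ X forces that chromosome to be the inactivated one. That X carries a GFP reporter (XGFP) and the other a tdTomato reporter, both in Hprt, and the line holds rtTA in Rosa26 and doxycycline-inducible transgenes for Prdm1, Prdm14 and Tfap2c. Bulk RNA was sequenced from 4 groups of 4 libraries. ESCs were grown in serum with LIF and then in 2i with LIF. Epiblast-like cells (EpiLCs) were derived from them over 48 h, split, and grown for 48 h more. Primordial germ cell-like cells (PGCLCs) were induced from EpiLCs with doxycycline and sorted on day 5 as SSEA1+, CD61+ and XTomato+ cells. XGFP+ PGCLCs kept the reporter of the 129S1/SvImJ X, and XGFP- PGCLCs had lost it. For single-cell RNA, sorted PGCLCs were aggregated for 6 days with somatic cells of E13.5 female gonads and mesonephros into reconstituted ovaries (rOvaries). Germ cells from XGFP- PGCLCs were sorted into XGFPhigh, XGFPintermediate and XGFPlow cells, and germ cells from XGFP+ PGCLCs into XGFP+ constitutive cells. Single ESCs were sequenced beside them. PGCLC induction by transgenes and a fixed choice of the inactive X limit these groups as models of the embryo.

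Many germ line genes start from promoters with dense CpG that are methylated when the embryo implants and stay silent in the body. In that step the methyltransferase Dnmt3b, with Dnmt3a and Dnmt1, acts beside a variant Polycomb complex that holds E2f6, Mga, Max, L3mbtl2 and Pcgf6 and finds E2F sites and E-boxes. Primordial germ cells lose most of their DNA methylation, after which such genes can be transcribed.

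The bulk libraries held between 29.8 M and 46.5 M reads recovered from the normalized values. Summed normalized counts of 6 germ cell markers (Dazl, Ddx4, Dppa3, Dnd1, Prdm1 and Tfap2c) lay between 24381 and 29189 in XGFP+ PGCLC libraries. They lay between 21308 and 23532 in XGFP- PGCLC libraries, against 1947 to 2727 in EpiLCs and 5924 to 6284 in ESCs. Prdm1 and Tfap2c were also induced as transgenes in PGCLCs, so part of this sum may come from the transgenes. The sum hides differences between single markers. Mean normalized counts were 347.6 in XGFP- and 4792 in XGFP+ PGCLCs for Dazl, and 223.6 and 460.6 for Ddx4. The study reports Prdm1 and Tfap2c as higher in XGFP- PGCLCs. Summed normalized counts of 5 epiblast markers, Dnmt3b among them, lay between 52073 and 60895 in EpiLCs and at most at 4125 elsewhere. Of 10 gonadal somatic markers 5 were measured in bulk, and their sum lay between 107.5 and 190.6 in PGCLCs. It lay between 458.2 and 523.1 in ESCs and between 2930.7 and 5596.1 in EpiLCs, so in bulk it does not mark gonadal cells alone. The study's methods describe a pair of clones, each with technical replicates, while its legends speak of biological replicates and the labels name no clone. Every n of 4 below may thus stand for 2 clones, and p-values, standard errors and SDs measure the spread between libraries, part of which may be technical. In bulk RNA, fewer cells that express a gene and less RNA per cell cannot be told apart. Of 518 rOvary cells 462 were kept, after 6 XGFP+ constitutive, 19 XGFPhigh, 16 XGFPintermediate and 15 XGFPlow cells were left out for few genes or reads or a high mitochondrial share. The kept cells had a median of 354149 reads in XGFP+ constitutive cells and of 636623 to 645474 reads in the other populations.

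The promoters of the 8 genes differed in CpG density. Of the 300 bases around each RefSeq start (250 before it and 50 from it on, assembly GRCm38.p6), Taf7l had the highest ratio of observed to expected CpG, 1.03, above 95.5% of 32851 promoter windows, and Slc25a31 followed with 0.826 and 22 CpG. Aurkc had the lowest, 0.381 with 6 CpG, next to a median of 0.384 and 7 CpG over all windows. The ratio was 0.70 for Tex101, 0.676 for Tuba3b, 0.643 for Rpl10l, 0.575 for Tex19.1 and 0.472 for Tuba3a. Only Taf7l and Slc25a31 were above 0.75, the upper quartile of all windows.

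The core of the E2F motif (TCCCGC, or GCGGGA on the other strand) was found in 5 of the 8 windows, those of Tex19.1, Slc25a31, Tuba3a, Tuba3b and Rpl10l, against 19.98% of all windows. A form longer by 1 base (TTCCCGC or GCGGGAA) was found in 4 of the 8, against 4.6% of all. The E-box CACGTG, which reads the same on both strands, was found in Taf7l and Slc25a31, against 7.15% of all windows. Tex101 and Aurkc held neither motif. Of a list of 21 other germ line genes, used again below, 19 had a matched window. Among these, 9 held the E2F core and 10 the E-box, and their median ratio of observed to expected CpG was 0.78. In the windows of the closely related tubulin genes, the E2F match began at -119 in Tuba3a and at -106 in Tuba3b, counted in bases from the first transcribed base at 0. The stretches below lie upstream of both the RefSeq and the GENCODE starts, outside annotated exons of the gene, and are shown 5′ to 3′ along each gene because they hold these matches or, for Aurkc, none. Capitals mark the E2F core or the E-box, and the E2F match of Slc25a31, at 20, lies downstream of the stretch shown.
Tex19.1 (chr11:121145893-121146142, plus strand): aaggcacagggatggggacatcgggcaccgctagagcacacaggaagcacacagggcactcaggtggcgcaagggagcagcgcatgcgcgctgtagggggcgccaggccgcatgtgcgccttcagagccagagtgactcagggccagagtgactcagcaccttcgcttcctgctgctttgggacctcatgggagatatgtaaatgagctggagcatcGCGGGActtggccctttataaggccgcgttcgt
Aurkc (chr7:6995135-6995299, plus strand): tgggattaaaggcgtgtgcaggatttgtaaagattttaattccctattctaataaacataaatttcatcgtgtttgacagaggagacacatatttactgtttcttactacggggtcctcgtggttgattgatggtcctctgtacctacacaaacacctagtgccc
Taf7l (chrX:134476491-134476740, minus strand): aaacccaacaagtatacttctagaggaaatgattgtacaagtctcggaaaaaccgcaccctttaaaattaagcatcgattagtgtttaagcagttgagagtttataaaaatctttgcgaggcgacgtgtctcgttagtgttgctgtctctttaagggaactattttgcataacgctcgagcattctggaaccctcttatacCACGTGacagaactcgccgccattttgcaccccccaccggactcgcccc
Slc25a31 (chr3:40708621-40708854, plus strand): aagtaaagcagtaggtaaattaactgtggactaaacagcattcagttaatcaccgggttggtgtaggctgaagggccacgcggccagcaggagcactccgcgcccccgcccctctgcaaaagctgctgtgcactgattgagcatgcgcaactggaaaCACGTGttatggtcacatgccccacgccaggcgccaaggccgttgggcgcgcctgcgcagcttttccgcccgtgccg
Tuba3a (chr6:125286082-125286331, minus strand): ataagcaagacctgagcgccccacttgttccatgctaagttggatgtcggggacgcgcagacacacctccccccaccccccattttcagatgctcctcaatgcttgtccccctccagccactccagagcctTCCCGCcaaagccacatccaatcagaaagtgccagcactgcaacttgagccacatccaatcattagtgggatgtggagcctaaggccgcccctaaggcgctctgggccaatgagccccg
Rpl10l (chr12:66284402-66284651, minus strand): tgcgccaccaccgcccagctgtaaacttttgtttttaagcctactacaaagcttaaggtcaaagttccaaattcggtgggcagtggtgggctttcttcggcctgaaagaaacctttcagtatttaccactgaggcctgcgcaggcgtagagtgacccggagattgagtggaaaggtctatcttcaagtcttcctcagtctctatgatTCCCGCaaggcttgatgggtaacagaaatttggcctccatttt

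**Figure D1:**
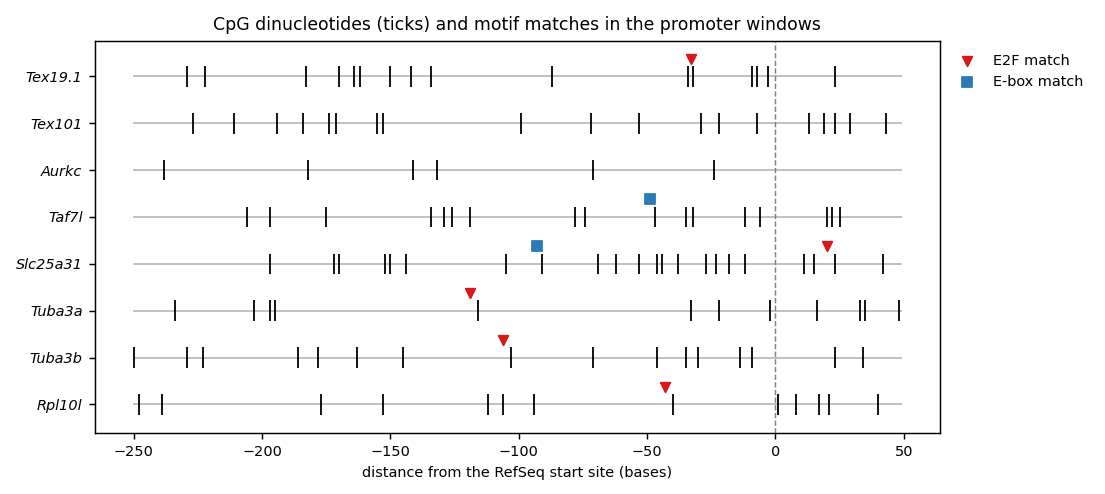
CpG dinucleotides (ticks), E2F matches (triangles) and E-box matches (squares) in the promoter windows of the 8 genes, by distance in bases from the RefSeq start site (dashed line). Slc25a31 has the most CpG, 22, and Aurkc the fewest, 6, with no match of either motif.

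Tex19.1, which restrains retrotransposons in germ cells, had the highest level per length of the 7 genes in ESCs and in both PGCLC populations. Its normalized counts (reads divided by a size factor per library) in replicates 1 to 4 were 2579.6, 2528, 2313 and 2563 in ESCs and 1722, 1112, 1072 and 646 in EpiLCs. They were 1689, 1861, 1286 and 1485 in XGFP+ PGCLCs and 236, 312, 251 and 459 in XGFP- PGCLCs. ESC libraries were the highest and XGFP- PGCLC libraries the lowest, each apart from the rest, and XGFP+ PGCLCs and EpiLCs overlapped.

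Aurkc, the germ cell Aurora kinase of the chromosomal passenger complex, had another order. Its normalized counts were 172, 221, 113.6 and 130.1 in ESCs and 34.1, 22.7, 25.8 and 44.4 in EpiLCs. They reached 459, 512, 529 and 677 in XGFP+ PGCLCs and 128.3, 165, 188 and 282 in XGFP- PGCLCs. EpiLCs were the lowest group here, XGFP+ PGCLCs the highest, and XGFP- PGCLCs overlapped with ESCs. Of its 100-base transcript windows 36.8% also occur in transcripts of other genes, most with Gm12463, so part of its reads could belong to those.

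Taf7l, the germ cell relative of the TFIID subunit Taf7 and the X-linked gene of the 8, had the lowest level per length in ESCs and in both PGCLC populations, while Aurkc had the lowest in EpiLCs. Its normalized counts were 8.98, 19.8, 16.8 and 22.6 in ESCs, 76.8, 59.3, 115.3 and 64.2 in EpiLCs, 18.1, 18.8, 11.5 and 8.96 in XGFP+ PGCLCs and 2.60, 1.02, 5.77 and 3.09 in XGFP- PGCLCs. It was highest in EpiLCs and lowest in XGFP- PGCLCs, where 1 to 6 reads were counted per library, and ESCs and XGFP+ PGCLCs overlapped.

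Slc25a31, the germ cell ADP/ATP carrier of the inner mitochondrial membrane, shared the EpiLC maximum with Taf7l. Normalized counts were 24.7, 33.6, 23.1 and 24.9 in ESCs, 142.6, 98.9, 215 and 108.6 in EpiLCs, 109.7, 127.7, 101.5 and 150.5 in XGFP+ PGCLCs and 17.3, 17.3, 15.4 and 31.95 in XGFP- PGCLCs. EpiLCs and XGFP+ PGCLCs overlapped in the upper range, and ESCs and XGFP- PGCLCs overlapped in the lower range.

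Tuba3a and Tuba3b encode alpha-tubulins of the male germ line. Tuba3a had normalized counts of 288, 465, 239.7 and 334 in ESCs, 170.3, 162, 145 and 116.5 in EpiLCs, 297, 462, 354 and 588 in XGFP+ PGCLCs and 17.3, 30.5, 18.3 and 56.7 in XGFP- PGCLCs. Tuba3b had 194, 376, 133.5 and 212 in ESCs, 330.3, 286, 268 and 278 in EpiLCs, 337, 477, 313 and 379 in XGFP+ PGCLCs and 9.53, 10.2, 12.5 and 27.8 in XGFP- PGCLCs. XGFP- PGCLCs lay below every other library for both genes. The pair parted in EpiLCs, which were below ESCs without overlap for Tuba3a and overlapped both neighbouring groups for Tuba3b. The genes share 12.3% and 11.8% of their 100-base transcript windows, so reads from that part could be assigned to either.

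Rpl10l, an autosomal retrogene of the X-linked ribosomal protein gene Rpl10, was second to Tex19.1 per length in ESCs and above it in EpiLCs. Its normalized counts were 1098, 1240.1, 1115 and 1169.7 in ESCs, 759.6, 508, 1007 and 589.5 in EpiLCs, 589, 679.6, 633 and 714 in XGFP+ PGCLCs and 26.9, 31.5, 29.8 and 89.7 in XGFP- PGCLCs. ESCs stood above EpiLCs without overlap, EpiLCs and XGFP+ PGCLCs overlapped, and XGFP- PGCLCs lay far below. No 100-base window of its transcript occurs in a transcript of another gene.

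**Figure D2:**
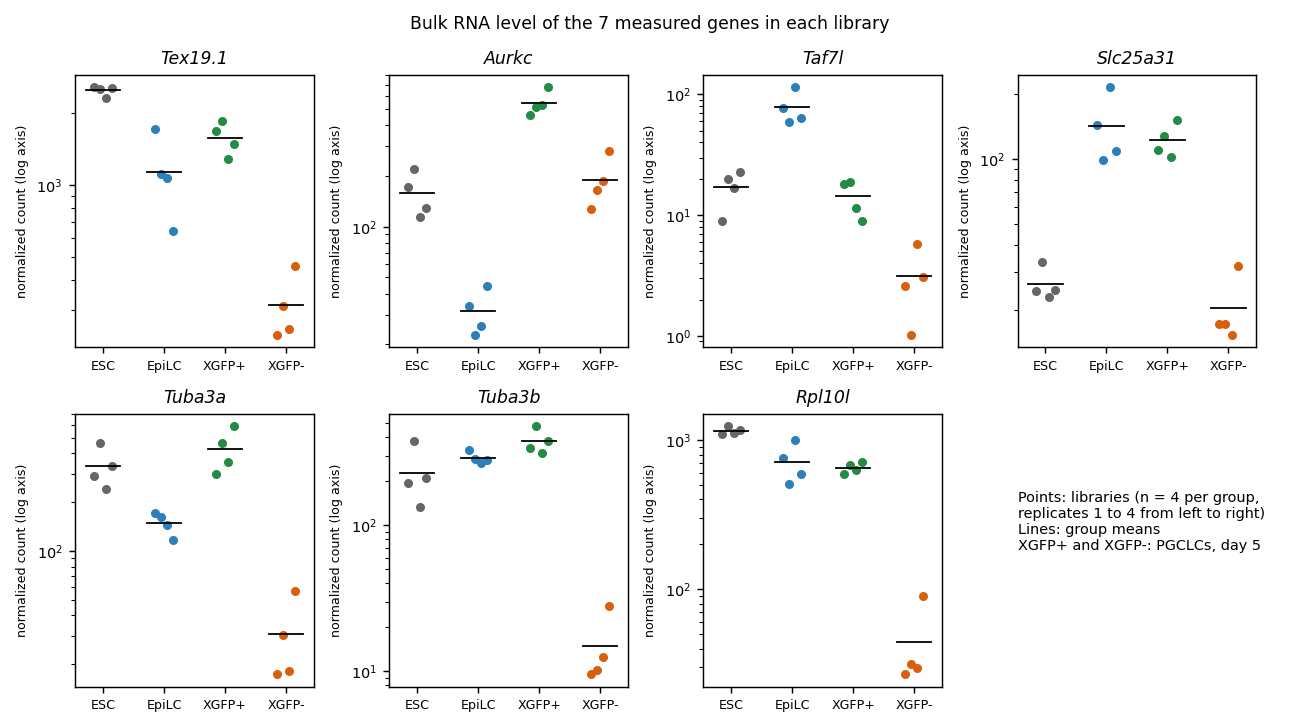
Normalized counts (log axis) of the 7 genes measured in bulk, with 1 point per library (n = 4 per group, replicates 1 to 4 from left to right) and lines at group means. The XGFP- PGCLC libraries lie below the XGFP+ PGCLC libraries for each of the 7 genes, and replicate 4 is the highest XGFP- library for 6 of them.

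The comparison of XGFP- with XGFP+ PGCLCs asks which transcripts differ between germ cells that have silenced the marked X and germ cells that have not. Summed normalized counts of 6 naive pluripotency markers lay between 46538.5 and 53819.7 in XGFP+ and between 27645.8 and 34369.5 in XGFP- PGCLC libraries. The marked X is thus not the only measured difference between these populations. Differences are on the log2(normalized count + 1) scale, with standard errors from limma-trend. They were -4.67 ± 0.29 for Tuba3b, -4.03 ± 0.27 for Rpl10l, -3.86 ± 0.30 for Tuba3a, -2.56 ± 0.25 for Slc25a31, -2.36 ± 0.23 for Tex19.1, -1.97 ± 0.37 for Taf7l and -1.55 ± 0.25 for Aurkc. The mean normalized count was 25.1 times lower in XGFP- PGCLCs for Tuba3b and 2.85 times lower for Aurkc, the ends of this range. All 7 measured genes passed a false discovery rate (FDR) of 0.001 as lower, where 12.5% of the 16281 genes tested did, and the libraries of all 7 did not overlap, as for 21.7% of genes. The genes were proposed with these values in view, so nothing is read from these counts. The median of the 7 differences was -2.56, against 0.01 over all genes.

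XGFP- replicate 4 was the highest XGFP- library for 6 of the 7 genes (Taf7l was the exception) and for 19 of 21 other germ line genes, where 28.4% of all genes were highest in it. Without it the median difference was -2.79, and that of Rpl10l -4.43. The Taf7l call was lost without XGFP+ replicate 1 or 2 or XGFP- replicate 2, with the PGCLC groups alone, in the edgeR test, with quantile normalization and with a pseudocount of 10, under which its difference was -0.88.

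Against EpiLCs, the cells from which PGCLCs are induced, the 2 PGCLC populations are described side by side, since both comparisons share the EpiLC libraries. In XGFP+ PGCLCs the differences from EpiLCs were 4.09 ± 0.25 for Aurkc, 1.48 ± 0.30 for Tuba3a, 0.54 ± 0.23 for Tex19.1, 0.36 ± 0.29 for Tuba3b, -0.09 ± 0.27 for Rpl10l, -0.15 ± 0.25 for Slc25a31 and -2.39 ± 0.37 for Taf7l. Aurkc and Tuba3a were called higher (27.8% of genes were) and Taf7l lower (29.5% were), and the other 4 overlapped between the groups. Libraries did not overlap for the same 3 genes, as for 33.8% of genes in the higher and 36.1% in the lower direction. The Tuba3a call was lost without EpiLC replicate 4 or XGFP+ replicate 2 or 4.

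In XGFP- PGCLCs the differences from EpiLCs were -4.36 ± 0.37 for Taf7l, -4.31 ± 0.29 for Tuba3b, -4.12 ± 0.27 for Rpl10l, -2.72 ± 0.25 for Slc25a31, -2.39 ± 0.30 for Tuba3a and -1.82 ± 0.23 for Tex19.1. Aurkc alone was higher, by 2.53 ± 0.25. Thus 6 of 7 genes were called lower (31.9% of genes were) and 1 higher (29.9% were). From EpiLCs to PGCLCs, Aurkc rose in both populations, and Tuba3a rose in one and fell in the other.

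From ESCs to EpiLCs the genes split. Slc25a31 and Taf7l were called higher, by 2.31 ± 0.25 and 2.17 ± 0.37, where 24.9% of genes were. Aurkc and Tex19.1 were called lower, at -2.29 ± 0.25 and -1.22 ± 0.23, where 22.9% of genes were. Tuba3a (-1.13 ± 0.30), Rpl10l (-0.74 ± 0.27) and Tuba3b (0.44 ± 0.29) were not called, although the first pair did not overlap between groups. EpiLCs were lower without overlap for 4 genes and higher for 2, as for 29.5% and 31.2% of genes. Tuba3a was called with quantile normalization, by edgeR, by DESeq2 and with ESCs and EpiLCs alone.

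**Figure D3:**
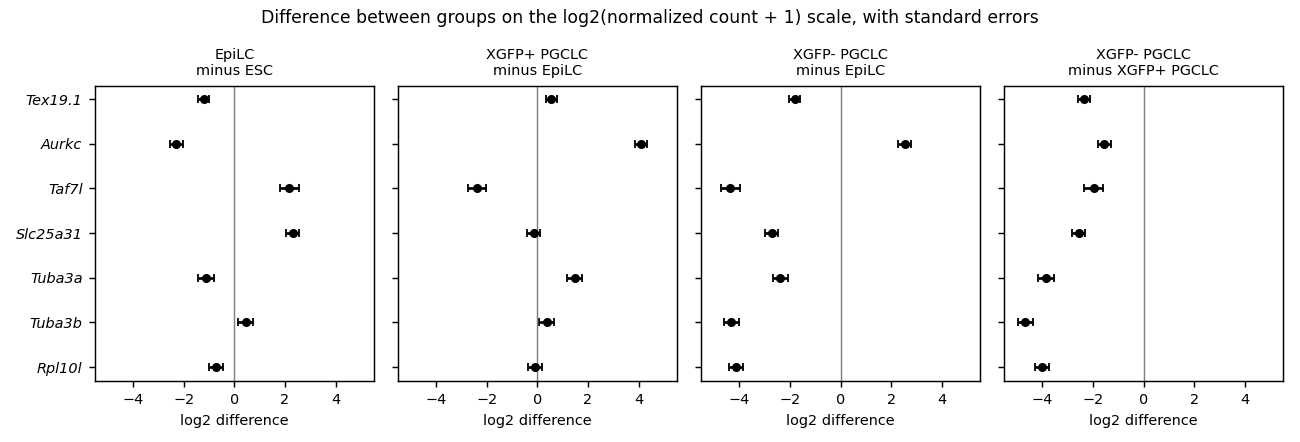
Differences between groups on the log2(normalized count + 1) scale for the 7 genes measured in bulk, with standard errors from limma-trend (n = 4 libraries per group). In XGFP- minus XGFP+ PGCLCs the points lie between -4.67 and -1.55, and from EpiLCs to PGCLCs Aurkc lies above 0 in both populations, at 4.09 and 2.53.

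The allelic ratio of Taf7l, the share of 129S1/SvImJ reads among reads of either strain, was not used in choosing the genes. It was 0.444, 1, 0 and 0.5 in XGFP+ PGCLCs and 0 in all 4 XGFP- libraries (exact two-sided permutation test, p = 0.143, n = 4 per group). Without ties the smallest possible p is 0.0286, but the values tied at 0 kept p from falling below 0.143 here. The test could therefore not decide whether the populations differ. A ratio of 0 can also stand for no allelic read, and Taf7l had 10 to 20 reads in XGFP+ and 1 to 6 in XGFP- libraries, so a difference was not detectable at this depth. In EpiLCs, with 60 reads or more per library, the ratio was 0.129, 0.227, 0.207 and 0.138. In ESCs it was 0.667, 0.667, 0.667 and 0.857, from 8 to 20 reads.

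The broadly expressed relatives of these genes gave a scale for the levels. Per kb of exon, Rpl10 had a mean normalized count of 31441 ± 2142 (SD, n = 4) in XGFP+ PGCLCs and 22620.3 ± 868 in XGFP-, against 639 ± 53.1 and 43.5 ± 29.5 for Rpl10l. Slc25a5 and Slc25a4, the ADP/ATP carriers of other tissues, had 16082 ± 2046 and 9229.8 ± 908 per kb in XGFP+ and 6565 ± 176 and 7723 ± 680.1 in XGFP- PGCLCs, against 57.5 ± 10.2 and 9.63 ± 3.62 for Slc25a31. The tubulins Tuba1b, Tuba1c and Tuba1a had 14314 ± 549.6, 3014 ± 123.7 and 1394 ± 218 per kb in XGFP+ PGCLCs, and 11231 ± 936, 2026 ± 294 and 1407 ± 219 in XGFP-. Tuba3a and Tuba3b, at 282 ± 84.9 and 212 ± 40.7 per kb in XGFP+ PGCLCs, were well below them.

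Aurkc was nearest to its relatives. It had 357 ± 61.4 per kb in XGFP+ PGCLCs, where Aurka had 1309 ± 117.7 and Aurkb 919.9 ± 64.1, and 125 ± 43.2 in XGFP- PGCLCs, where they had 1199.5 ± 142.2 and 944 ± 64.98. Taf7 stood at 854 ± 27.6 per kb in XGFP+ and 785 ± 43.4 in XGFP- PGCLCs, beside 6.39 ± 2.17 and 1.39 ± 0.88 for Taf7l. Tex19.2, the neighbour and paralog of Tex19.1, had 15.9 ± 1.14 and 4.15 ± 1.18, beside 844 ± 133.1 and 168 ± 54.3 for Tex19.1. From XGFP+ to XGFP- PGCLCs, 5 of these 10 relatives were called lower (12.5% of all genes were) and 0 higher (11.3% were) by limma-trend, with Tex19.2 (-1.85 ± 0.22, FDR = 1.96e-06) and Slc25a5 (-1.28 ± 0.07, FDR = 2.07e-10) the furthest. The others were Tuba1c, Rpl10 and Tuba1b, at -0.58, -0.47 and -0.35.

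Of 21 other germ line genes, 16 were lower and 0 higher in XGFP- than in XGFP+ PGCLCs at an FDR of 0.001 (limma-trend, all genes), against 12.5% and 11.3% of all genes, and the median difference was -2.07. This list, like those of the relatives, the methylation machinery and the Polycomb complex, was drawn up with earlier results of these data known. Counts and FDRs of these lists are therefore a description, in every comparison, and not independent evidence. With the replicate number as a block Asz1 was also called, which made 17. The furthest were Hormad1, a protein of the meiotic chromosome axis (-4.63 ± 0.32, FDR = 3.36e-09), the RNA-binding licensing factor Dazl (-4.05 ± 0.42, FDR = 3.39e-07) and the transcription factor Sohlh2 (-3.17 ± 0.28, FDR = 6.21e-08). Hormad1 fell from 779.6 ± 166 to 33.6 ± 18.04 normalized counts (SD, n = 4).

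Against EpiLCs, 14 of the 21 were lower and 2 higher in XGFP- PGCLCs, and 5 lower and 8 higher in XGFP+ PGCLCs. Of all genes, 31.9% were lower and 29.9% higher in XGFP- PGCLCs, and 29.5% lower and 27.8% higher in XGFP+ PGCLCs. In XGFP- PGCLCs Hormad1, the piRNA pathway gene Mael and the synaptonemal complex gene Sycp1 changed furthest, by -5.14, -3.73 and -3.54 on the log2 scale, and Tex14 and Stk31 rose by 2.13 and 1.53. In XGFP+ PGCLCs Dazl, Stk31 and Asz1 rose furthest, by 4.21, 2.97 and 2.73, and Tdrd1, Sycp1 and Mael changed by -2.12, -1.37 and -1.32. The Asz1 call was lost without any 1 of EpiLC replicates 1, 2 and 4 or XGFP+ replicates 1, 2 and 4, and with a pseudocount of 0.5. That of Sycp1 was lost without EpiLC replicate 2 or 3 or XGFP+ replicate 1 or 4, with the replicate block, with quantile normalization and with the 2 groups alone.

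From ESCs to EpiLCs 8 of the 21 rose and 3 fell, where 24.9% of all genes rose and 22.9% fell. The piRNA pathway genes Tdrd1, Mael and Mov10l1 rose by 5.38, 3.21 and 1.89 on the log2 scale, and Rpl39l, Hsf2bp and Stk31 changed by -1.43, -1.06 and -0.85. Tdrd1 went from 8.82 ± 2.98 to 396 ± 24.3 normalized counts (SD, n = 4).

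Genes of the methylation machinery also differed between the PGCLC populations. Of 8, 4 were lower and 0 higher in XGFP- than in XGFP+ PGCLCs, where 12.5% of all genes were lower and 11.3% higher. These were Dnmt3l, the cofactor of de novo methylation (-3.27 ± 0.19, FDR = 4.63e-10), the de novo enzyme Dnmt3b (-2.52 ± 0.13, FDR = 1.47e-10), the oxidase Tet3 (-1.23 ± 0.13, FDR = 4.22e-07) and Uhrf1, which recruits Dnmt1 to replicated DNA (-0.86 ± 0.09, FDR = 3.17e-07). Of 8 genes of the variant Polycomb complex, L3mbtl2 was lower (-0.61 ± 0.09, FDR = 2.38e-05) and E2f6 and Max were higher, by 0.33 ± 0.06 (FDR = 0.000248) and 0.26 ± 0.05 (FDR = 0.000568). Beside the same shares of all genes, so few calls among 8 genes are not read as a result about this complex. The calls of E2f6 and Max were lost without some single libraries, those of Max without any 1 of 7 of the 8 PGCLC libraries and those of E2f6 without any 1 of 3. Whether these levels bear on the 8 germ line genes was not tested.

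Among 11697 other genes with a mean normalized count above 100, the 5 whose levels over the 16 libraries were most like the mean profile of the 7 genes were Zfp989, 1700019A02Rik, Zfp978, Adam23 and Gm13230, with Pearson's r from 0.977 to 0.987 on the log2 scale. Zfp989 had 237 ± 25.02, 198 ± 34.4, 315 ± 47.6 and 33.9 ± 7.89 normalized counts (SD, n = 4) in ESCs, EpiLCs, XGFP+ and XGFP- PGCLCs. Of the 7 genes, Tuba3b followed the mean of the other 6 most closely (r = 0.981), then Tuba3a (0.935), Rpl10l (0.919), Tex19.1 (0.861), Slc25a31 (0.625) and Taf7l (0.56), while Aurkc did not follow it (-0.11). These points share libraries and groups, so r is a description.

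After 6 days in rOvaries, with all lanes pooled, the 8 genes fell into 2 patterns. Tex101, Taf7l, Slc25a31 and Tuba3a were highest in XGFPintermediate cells, and Tex19.1, Aurkc, Tuba3b and Rpl10l in XGFP+ constitutive or XGFPhigh cells. Each sorted population is 1 sample, so populations are set side by side without a test. Intervals of the levels cover the counting error of reads only, and not amplification or the spread between cells. Levels are given in RPM, the reads of a gene per 1000000 of the summed reads of a population, with exact 95% Poisson intervals.

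Tex101, which encodes a GPI-anchored surface protein of germ cells, stood at 29.2 (27.3 to 31.2) RPM in XGFP+ constitutive, 197 (194 to 199.96) in XGFPhigh, 493 (489 to 498) in XGFPintermediate and 139.3 (136.7 to 141.9) in XGFPlow cells. It had a read in 19.3%, 22.4%, 66.4% and 38.02% of the cells. After thinning each cell to 100000 reads these shares were 17.05%, 20%, 64.8% (exact binomial interval 55.9 to 73.1) and 37.2% (28.6 to 46.4). In XGFPhigh cells 83.2% of its reads came from 5 cells, so a few cells set the level there, against 31.1% in XGFPintermediate cells. None of 24 single ESCs had a Tex101 read, and a count of 0 allows up to 0.115 RPM, the level of 3 reads.

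Taf7l stood at 110.8 (107.2 to 114.6) RPM in XGFP+ constitutive, 231 (228 to 235) in XGFPhigh, 589.9 (585 to 595) in XGFPintermediate and 47.5 (46.03 to 49.1) in XGFPlow cells. The share of cells with a read after thinning was 50%, 39.2%, 53.1% and 23.1%. The level thus differed more between populations than the share did, and the highest XGFPintermediate cell reached 6102 RPM. Of the 24 single ESCs, with deeper libraries, 1 had a Taf7l read, and after thinning none did. At 10 or more reads after thinning, the shares were 10.2%, 12.8%, 32.8% and 11.6%.

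Slc25a31 stood at 101.5 (98.04 to 105.1), 212 (208 to 215), 526 (521 to 531) and 274 (270.1 to 277) RPM in the same order, with a read after thinning in 59.1%, 56%, 85.2% and 66.1% of cells. Tuba3a stood at 234 (229 to 239), 259 (256 to 263), 712 (707 to 718) and 502 (497 to 507). For both genes XGFPlow cells came next below XGFPintermediate cells, whereas Tex101 and Taf7l came next in XGFPhigh cells.

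Tuba3b went the other way from its paralog, with 537 (529 to 546), 401 (397 to 406), 273 (269.96 to 277) and 174 (171 to 177) RPM. Rpl10l stood at 209.8 (205 to 215), 242 (239 to 245), 75.2 (73.3 to 77.04) and 57.9 (56.3 to 59.6), and its source gene Rpl10 at 2043, 2093, 1319 and 1226. With lanes pooled both genes were higher in XGFP+ constitutive and XGFPhigh cells than in the other populations, and the same held on lane 2 alone. XGFPlow cells were lowest for Tuba3b in both cases, but for Rpl10l on lane 2 alone they stood at 124.6 RPM and XGFPintermediate cells at 78.99.

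Tex19.1 stood at 197 (193 to 202), 139.8 (137.2 to 142.4), 118.3 (115.97 to 120.6) and 120.45 (118.05 to 122.9) RPM, and the last pair does not differ beyond counting error. Aurkc stood at 106.4 (102.9 to 110.1), 102.3 (100.2 to 104.5), 64.6 (62.9 to 66.3) and 82.2 (80.3 to 84.2), and the first pair overlaps. With lanes pooled these genes had the smallest spread, with a ratio of the highest to the lowest population of 1.67 and 1.65, against 16.9 for Tex101 and 12.4 for Taf7l. On lane 2 alone Tex19.1 stood at 197, 83.7, 52.8 and 63.95 RPM, a wider spread, and Aurkc at 106.4, 93.1, 86.2 and 116.3, highest in XGFPlow cells. With lanes pooled, 19 of the 21 other germ line genes were highest in XGFPintermediate cells, among them Sycp3 with 425 RPM there and 16.4 in XGFP+ constitutive cells. Some led narrowly, such as Fkbp6 at 513.8 RPM against 509.7 in XGFPlow cells. The share of all genes highest there was not computed, nor was this list on single lanes, so nothing is read from this count.

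**Figure D4:**
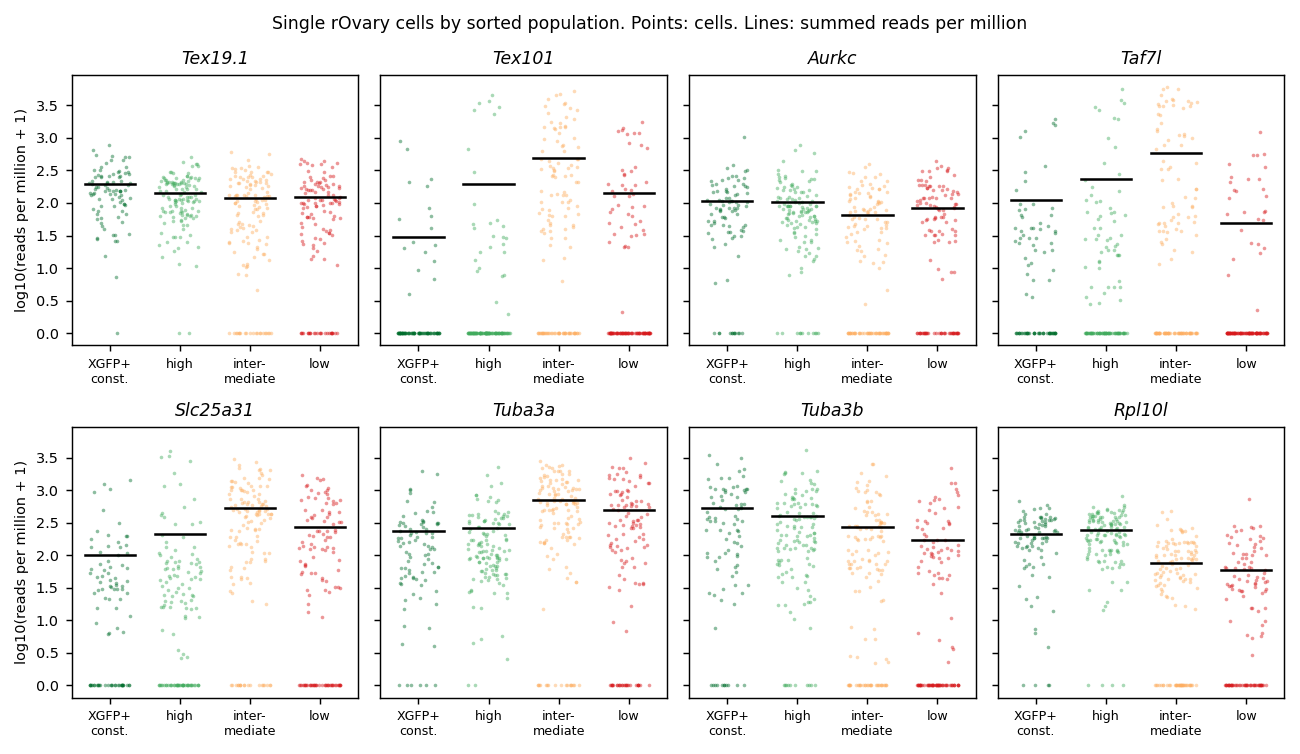
Levels of the 8 genes in single rOvary cells by sorted population (462 cells), as log10(RPM + 1), with 1 point per cell and a line at the summed RPM of the population. Tex101, Taf7l, Slc25a31 and Tuba3a peak in XGFPintermediate cells, and Tuba3b and Rpl10l are lower in XGFPintermediate and XGFPlow cells than in the other populations, with lanes pooled.

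The lane bears on these levels. All XGFP+ constitutive cells were sequenced on lane 2, where each other population had 14 to 16 kept cells, and lane 3 held the rest of XGFPhigh, XGFPintermediate and XGFPlow cells. On lane 3 alone the same 4 genes were highest in XGFPintermediate cells, with Taf7l at 234, 699 and 35.6 RPM and Tex101 at 192, 580.1 and 103.7. On lane 2 alone 0 genes were. There Taf7l stood at 215, 9.54 and 128.2 and Tex101 at 224, 34.6 and 380.2 in XGFPhigh, XGFPintermediate and XGFPlow cells. The XGFPintermediate maximum of the 4 genes thus rests on the cells of lane 3, and for XGFP+ constitutive cells lane and population cannot be told apart in the comparison with lane 3. All 24 single ESCs were sequenced on lane 4, which held no rOvary cells, so for them lane and cell type cannot be told apart either.

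Cells with little Dazl, the germ cell licensing factor, held few reads of these genes. In 401 cells whose natural-log Dazl (reads per 10000, plus 1) was above 1, Tex101 had 288 and Slc25a31 356 RPM, against 2.13 and 12.2 in the other 61 cells. Tex19.1 (147 against 45.1) and Aurkc (90.4 against 52.8) differed less. After thinning, a cell had a read of a median of 6 of the 8 genes in XGFP+ constitutive, XGFPhigh and XGFPintermediate cells and of 5 in XGFPlow cells, against 3 in single ESCs.

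No read of any of the 8 was found after thinning in 18 XGFPlow cells (14.9%), 11 XGFPintermediate cells (8.59%) and 0 of the other populations. None of these 29 cells had Dazl above 1, their median sum of the 6 germ cell markers was 0, and 15 of them had a read of a gonadal somatic marker, as did 160 of the other 433 cells. Summed levels of the 10 somatic markers were 7.25, 10.2, 47.8 and 37.3 RPM in XGFP+ constitutive, XGFPhigh, XGFPintermediate and XGFPlow cells, with 3, 2, 1 and 1 markers at 0. With cells of Dazl above 1 only, the same 4 genes were highest in XGFPintermediate cells, with Taf7l at 658 RPM there.

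Across single cells Tex101, Taf7l and Slc25a31 varied together, and in XGFPintermediate and XGFPhigh cells Tuba3a did so less. In XGFPintermediate cells with Dazl above 1, all but 12 of those kept, Spearman's rho of RPM was 0.819 between Tex101 and Taf7l, 0.816 between Tex101 and Slc25a31 and 0.825 between Taf7l and Slc25a31. These 3 genes had rho from 0.754 to 0.799 with Sycp3, a component of the meiotic chromosome axis. Aurkc ran against them, with rho of -0.65, -0.69 and -0.64. Tuba3a had 0.24 with Tex101, 0.15 with Taf7l and 0.307 with Slc25a31. The tubulin pair had 0.698 with each other, and no pair with Rpl10l went beyond 0.123.

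In XGFPlow cells rho was 0.477, 0.649 and 0.564 for the same 3 pairs, and in XGFPhigh cells 0.43, 0.392 and 0.439. In XGFP+ constitutive cells it was 0.476, 0.413 and 0.571. With Tex101, Taf7l and Slc25a31 in that order, Tuba3a had 0.473, 0.358 and 0.664 in XGFPlow cells. It had 0.514, 0.344 and 0.453 in XGFP+ constitutive cells, so in these populations it did not stand apart from the 3 genes. Aurkc was negative with each of the 3 in all 4 populations. On lane 3 alone XGFPintermediate cells gave 0.835, 0.833 and 0.83. The cells of a population share a library preparation and the RPM share a total per cell, so rho is a description.

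**Figure D5:**
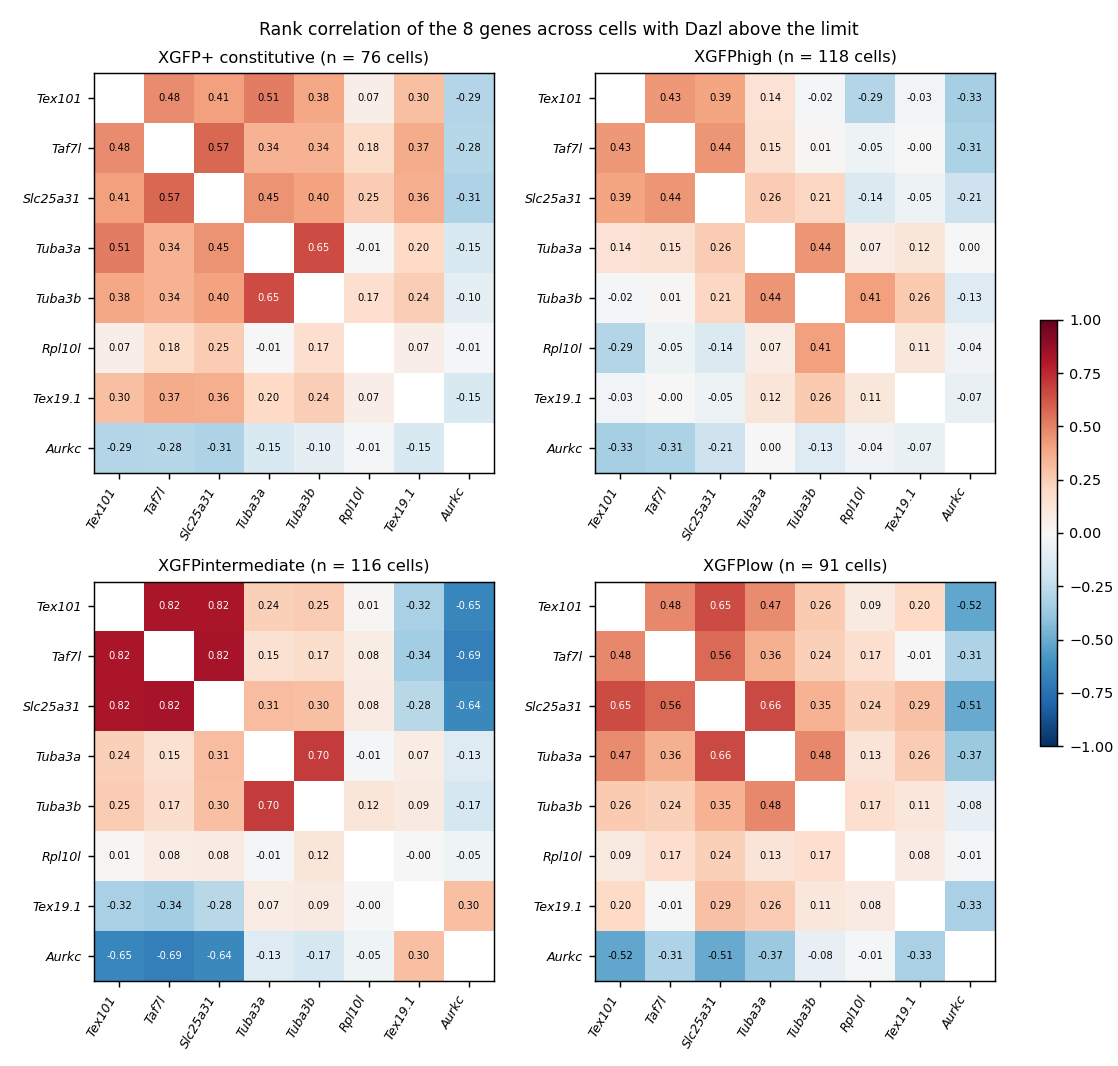
Spearman's rho (colour and numbers) between the 8 genes across single cells with Dazl above 1, in each sorted population (401 cells in all). Tex101, Taf7l and Slc25a31 form a block with rho above 0.81 in XGFPintermediate cells, and Aurkc is negative with each of them in all 4 panels.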

How the data were processed

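Bulk RNA (16 libraries) and single-cell RNA (552 wells) were analysed from deposited tables. The bulk values are normalized counts, a signal produced by the authors through STAR alignment to mm10, HTSeq 0.6.1 read counting and division by DESeq2 size factors. Reads were recovered from the spacing of low values, falling within 0.01 of a whole read for 100% of values up to 1000 reads. The allelic ratio is a fraction of reads made by the authors, deposited without read numbers, and 4 columns of other cells were not used. The single-cell values are read counts per gene, deposited unscaled by the authors, from which reads per 1000000 (RPM) were computed here.

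Genes were named by Ensembl identifier from GENCODE vM21. Groups were compared with limma 3.58.1 (limma-trend on log2(normalized count + 1), 1 model over the 16 libraries, 16281 genes with a mean above 10, Benjamini-Hochberg FDR below 0.001). Alternatives were edgeR 4.0.16 quasi-likelihood and DESeq2 1.42.0 on recovered reads, a pseudocount of 0.5 or 10, no filter or a mean above 100, quantile normalization, compared groups alone, a replicate block and each library left out. The scripts were tested on simulated data. The members, lists and rules were chosen with earlier results of these data known. Named besides the 8 genes are, per comparison, the 3 called germ line genes with the largest change in each direction, called genes of the methylation and Polycomb lists in XGFP- versus XGFP+ PGCLCs, the relatives, and the 5 most similar profiles, with Sycp3 chosen after its values were seen. Same-numbered XGFP+ and XGFP- libraries deviated together from their group means, with r across genes from 0.135 to 0.307, so these numbers were taken to pair the samples, while other group pairs gave r from -0.01 to 0.16. No cause of this pairing is given in the labels. The main fit and the permutation test of the Taf7l ratio did not use the pairing, which entered only through the replicate block.

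Cells were kept with at least 4000 genes, 10000 reads and at most 5% mitochondrial reads. 1 cell was sorted per well, no doublet caller was run, and the 10 empty wells held 0 reads of the 8 genes and at most 242 reads. Reads carry no molecular identifiers, so the intervals of RPM cover the counting error of reads, and not amplification or the spread between cells. Promoter windows are from RefSeq on GRCm38.p6, the build of mm10, and all 8 genes matched.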

Additional observations from a re-analysis of the deposited data

Results flagged for a closer look

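In 168 groups of 4 bulk values, 7 held a library whose gap to the nearest other, as a share of the range, exceeded Dixon's 95% limit, where chance flags about 1 in 20 groups. In XGFP- PGCLCs replicate 4 stood out for 3 of the germ line genes. Rpl10l was at 89.7 normalized counts there, against 26.9 to 31.5 in the other libraries, Slc25a31 at 31.95 against 15.4 to 17.3, and Tuba3b at 27.8 against 9.53 to 12.5. All 3 stayed below every XGFP+ PGCLC library. What sets this library apart was not tested. In ESCs replicate 2 had 33.6 normalized counts of Slc25a31, against 23.1 to 24.9, and replicate 4 a Taf7l allelic ratio of 0.857, against 0.667 in each of the others. XGFP+ replicate 3 had 6469 normalized counts of Tuba1c, against 7019 to 7047, and EpiLC replicate 3 had 1689 of Zfp978, against 1224 to 1302.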

How the results depend on the processing

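Taf7l had 1 to 6 reads per XGFP- library, which limits its values, and Tex101 has no bulk value here. With a mean count above 100 Taf7l and Slc25a31 drop out, the median difference became -1.13 from ESCs to EpiLCs (-0.74 before), where 2 rather than 4 genes were called, and -3.86 from XGFP+ to XGFP- PGCLCs (-2.56 before). From EpiLCs to XGFP- PGCLCs the median of -2.72 became -2.28 with a pseudocount of 10 and -2.31 with quantile normalization. On lane 2 alone 0 rather than 4 genes were highest in XGFPintermediate cells. All summaries other than these 6 kept their direction and stayed within 1.5 times or within the spread between libraries. Of single values of the members in bulk 10 of 244 moved by more than that spread. Of RPM levels in rOvary populations 98 of 152 moved beyond their counting interval and 54 did not, so these levels depend on lane and on which cells are kept. With the replicate block the medians were -0.74, 0.36, -2.72 and -2.56 in the order of ESCs to EpiLCs, EpiLCs to XGFP+ PGCLCs, EpiLCs to XGFP- PGCLCs and XGFP+ to XGFP- PGCLCs. No member call changed with the block. In the list of germ line genes it added Asz1 in the last comparison and lost Sycp1 from EpiLCs to XGFP+ PGCLCs, where 12 rather than 13 genes were called, and it added Rnf2 of the Polycomb list against EpiLCs in both populations.

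Leaving out 1 library at a time gave medians from -0.92 to -0.59, 0.24 to 0.44, -2.94 to -2.50 and -2.79 to -2.45 in the same order. It gave 4, 2 to 3, 7 and 6 to 7 called members, and 10 to 11, 10 to 12, 16 and 15 to 17 called genes of the list. The Taf7l ratio difference lay between -0.65 and -0.31.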
